A study of Homo sapiens with 197 samples.

Results

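In a screen of activated kinases in IMR90 cells, 11 wells received enzymes that phosphorylate sugars, glycerol or other small molecules of carbon metabolism, or that regulate this metabolism. They were chosen by the name of the kinase in the lane's title, and were 6.01% of the kinase lanes compared and 5.58% of all lanes. With 59 rows read in each lane they gave 649 values, and the lanes of the other kinases gave 10148. In 6 wells the enzyme belongs to glycolysis: HK2 and HK3 (hexokinases, which phosphorylate glucose), ADPGK (a glucokinase that uses ADP), PFKL and PFKM (the liver and muscle forms of phosphofructokinase) and PKM2 (pyruvate kinase M2). In the other 5 wells it was PDK1 (pyruvate dehydrogenase kinase 1, which inhibits pyruvate dehydrogenase), PCK2 (the mitochondrial phosphoenolpyruvate carboxykinase), GALK2 (galactokinase 2), GK2 (glycerol kinase 2) or DAK (dihydroxyacetone kinase). The name PDK1 is also used for PDPK1, which has a lane of its own. All kinase wells, those of the other kinases included, held IMR90 cells, non-transformed human lung cells, infected with a retrovirus for 1 kinase that carries an added myristoylation signal, with RNA collected 4 days after infection. The series also has 3 lanes of IMR90 controls, 2 of SW39 cells, which are transformed IMR90 derivatives, and 6 of an RNA mixed from human cancer cell lines. Of the control lanes, 2 carry the name IMR90#2 and 1 the name IMR90#1, so the 3 lanes may hold only 2 separate samples. The lane of HK1 and the second lanes of PIK3CG and PTK2 were left out, and the lane of GK counts among the other kinases. Each of the 11 enzymes was measured in 1 well and 1 lane, so no value of a single well has a replicate error, and the tests measure the spread between wells of different kinases. The panel has no probe specific to any of the 11 enzymes. It has one for the tag that all the activated kinases carry, but the counts of the row named MyrFlag go against that name. Another row, named ZBTB33, had 18.5, 8.98 and 13.9 normalized counts in the control lanes and 4495 to 96000 in the 11 wells. The names of the 15 endogenous rows outside the tissue-restricted set, from MyrFlag to ZBTB4, may be offset by 3 rows against their counts, so a value given under one of these names may belong to another gene. Which row reports the tag was not settled here, so no row is used as the level of an enzyme. No gene of the panel defines lung fibroblasts, so the identity of the cells was not checked.

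Glycolysis converts glucose to pyruvate, and phosphoglycerate kinase 1 (PGK1) carries out one of its steps that make ATP. Cells adjust the transcripts of glycolytic enzymes with oxygen and nutrient supply, and PGK1 is a well-known target of the hypoxia-inducible factors as well as a common reference gene. A myristoylation signal anchors a protein in membranes, which activates many signalling kinases. Most of the enzymes considered here act on small molecules, whereas PDK1 phosphorylates a protein, pyruvate dehydrogenase, in the mitochondrion, and ADPGK is an enzyme of the endoplasmic reticulum.

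The Nanostring assay counts color-barcoded probes hybridized to RNA, without amplification. A lane held 75 rows: 42 tissue-restricted genes, 15 other endogenous rows, 4 housekeeping genes, 8 negative and 6 positive controls. The normalized count used here is the count scaled by the geometric mean of TBP and TUBB2A in the lane, so that PGK1 and B2M, also housekeeping genes, remain as measurements. In the 11 wells, normalized TBP lay between 409.8 and 500.4 and TUBB2A between 3799 and 4639. Total counts lay between 102419 (PFKL) and 308043 (HK2), with a median of 206845, against 29629 to 340763 and a median of 158845 in the other kinase lanes. The HK3 lane, with a total of 106643, had the largest scaling factor of the 11, 2.26, which was the fifth largest of all kinase lanes, and that of PFKL was 1.33. A count was taken as above background when it exceeded the mean + 2 SD of the negative controls of its lane, a level between 11.98 and 29.2 counts in the 11 lanes. By this rule 18 of the 59 rows tested were above background in more than 50% of the kinase lanes, 4 of them tissue-restricted: ADAM12, ALAS1, ATAD2 and PLCZ1. The 38 other tissue-restricted rows are called weak below.

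PGK1 and B2M (beta-2-microglobulin, the invariant chain of class I HLA molecules) had their highest values among the 11 wells in the same pair, PKM2 and HK3. The region before the start of PGK1 is shown because it is the glycolytic gene of the panel. The sequence is from RefSeq on GRCh38.p14, 5′ to 3′ on the plus strand, with 250 bases before the start, at chrX:78103998-78104247. Capitals mark ACGTG, a form of the core letters of hypoxia response elements, on either strand, and other forms are not marked.
PGK1: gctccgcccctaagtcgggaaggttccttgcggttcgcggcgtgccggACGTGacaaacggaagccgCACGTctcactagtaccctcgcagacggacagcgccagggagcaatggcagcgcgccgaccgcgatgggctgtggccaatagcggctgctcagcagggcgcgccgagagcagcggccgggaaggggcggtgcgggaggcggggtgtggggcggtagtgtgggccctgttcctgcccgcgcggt
The letters ACGTG occur 2 times in the window, and 18.5% of 35116 promoter windows of this length hold them. The matches are descriptions of the letters only.

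PGK1, the only glycolytic enzyme in the panel, had a normalized count of 13278 in the HK3 well and 13140 in the PKM2 well, ranks 5 and 6 from the highest of all kinase lanes compared. It was 10010 in the HK2 well, 9677 in ADPGK, 8794 in PFKM and 8742 in PFKL, so that both phosphofructokinase wells were the lowest of the 11, at ranks 26 and 18 from the lowest. The wells of PDK1, PCK2, GALK2, GK2 and DAK had 9691, 10786, 10798, 10068 and 9825. The 3 control lanes had 9952, 10385 and 10875, above both phosphofructokinase wells and below HK3 and PKM2. The median over the 11 wells was 10010, against 9793 (7993 to 14286) in the other kinase wells, a range that holds every one of the 11. The log2 difference was 0.052 (95% interval -0.065 to 0.17), and it did not pass the test (edgeR's quasi-likelihood test, adjusted p = 0.906 over 59 rows). It was 0.076 for the 6 glycolytic wells and 0.024 for the 5 others. The sign of the first difference was the same under 23 of 24 alternatives, and with B2M as the only reference gene it was -0.047. It was 0.012 without the HK3 well and 0.014 without PKM2, and 0.098 with TMM factors, which rest on all rows. In these bulk samples, fewer cells that express a gene and less RNA per cell cannot be told apart.

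**Figure D1:**
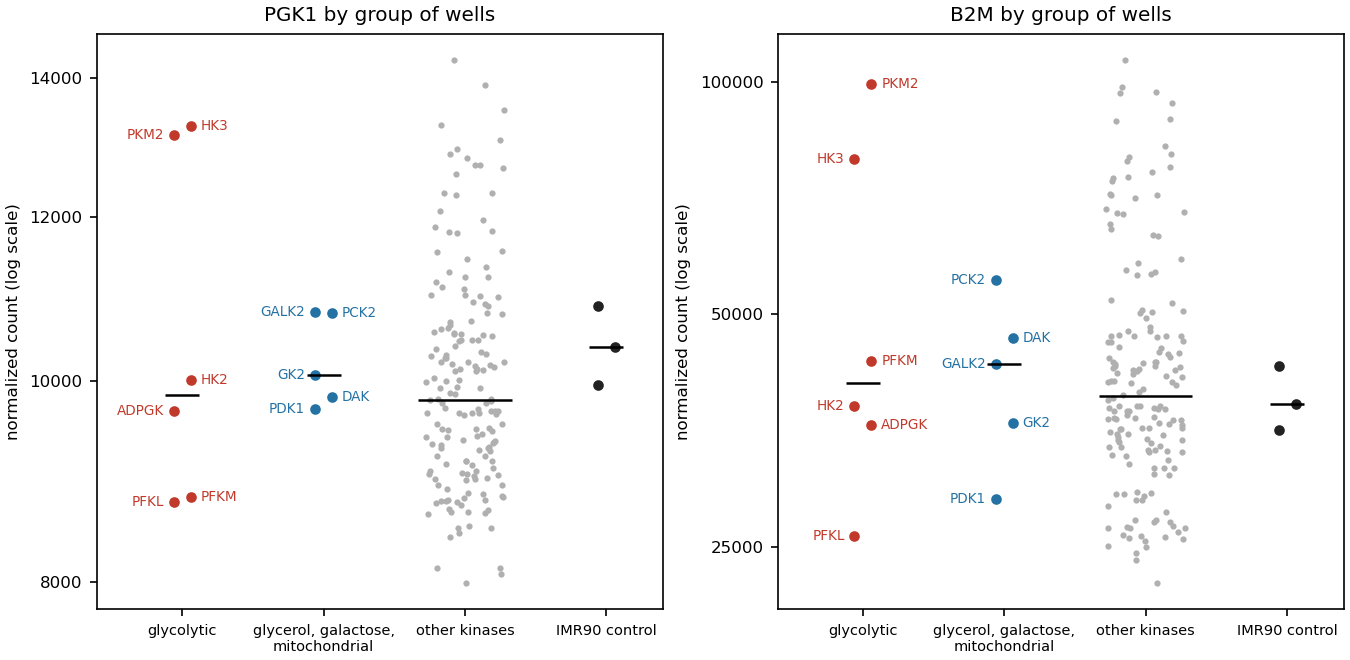
Normalized counts (log scale) of PGK1 (left) and B2M (right) in the 6 glycolytic kinase wells, the 5 glycerol, galactose and mitochondrial kinase wells, the other kinase wells and the 3 IMR90 control lanes, with 1 point per lane and a bar at the median of each group. PKM2 and HK3 lie near the top of the range of the other kinases for both genes, and PFKL lies near the bottom.

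B2M had the same pair at the top of the 11 wells. Its normalized count was 99507 in the PKM2 well, rank 2 from the highest, and 79437 in HK3, rank 12. The other glycolytic wells had 43474 (PFKM), 38107 (HK2), 35951 (ADPGK) and 25850 (PFKL, rank 10 from the lowest). The well of PCK2 had 55479, DAK 46656, GALK2 43175, GK2 36124 and PDK1 28805. The 3 control lanes had 42853, 35397 and 38338. The median was 43175 in the 11 wells and 39172 (22461 to 106799) in the other kinase wells, and the log2 difference of 0.13 (95% interval -0.19 to 0.44) did not pass edgeR's test (adjusted p = 0.963). Without the PKM2 well the difference was -0.034, and that sign was not seen under the other 23 alternatives. It was 0.032 without HK3, 0.19 without PFKL, 0.066 with GK added to the 11 and 0.050 with the block of sample numbers, described below, as a term.

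PGK1 and B2M also varied together outside these wells. Over the other kinase lanes the log2 normalized counts had Pearson's r = 0.78 and Spearman's rho = 0.69, each with a permutation p of 1e-05, the smallest the permutations can give, also after adjustment over the 2 scalings computed. Without the 2 lanes farthest from the median of B2M, r was 0.77. Both genes share the lane and its scaling factor, and with counts scaled by the positive controls alone r was 0.80. That scale does not correct for the amount of RNA in a lane, so it is no check on what the genes share. With TBP and TUBB2A as the scale and values centred within the blocks described below, r was 0.74.

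The sample numbers in the titles were cut here into blocks of 12 consecutive numbers, and the labels do not name such blocks. The PKM2 lane lies in a block with high values of both genes. In the 11 other kinase lanes of that block, the median was 12294 for PGK1 and 77617 for B2M. The PKM2 well was 1.07 times the first and 1.28 times the second median, and ranked 2 for PGK1 and 1 for B2M among the lanes of the block. HK3 was 1.35 times its block's median for PGK1 and 1.69 times for B2M, the highest lane of its block for both. In the block of PFKL the medians of the 9 other kinase lanes were 9334 and 26108, and PFKL was 0.937 and 0.990 times these. On the scale of the positive controls, which do not depend on the RNA, the Z-score of PGK1 in HK3 was 0.77 in place of 2.33, and in PKM2 2.04 in place of 2.25. A Z-score is the distance of a well's log2(normalized count + 1) from the mean over all kinase lanes compared, in SDs over these lanes. Centred within blocks, the Z-score of PGK1 was 2.75 in HK3 and 1.24 in PKM2, and that of B2M was 1.86 in HK3 in place of 1.85 and 1.60 in PKM2 in place of 2.4995.

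Of the other metabolic enzymes in the panel, only ALAS1, which starts heme synthesis, was above background in most lanes. It ranged from 399 (PFKL) to 616 (PFKM) in the glycolytic wells, with a median of 488. The 5 other wells had 465 (PDK1), 492 (PCK2), 471 (GALK2), 500 (GK2) and 524 (DAK), and the other kinase wells had a median of 484. The groups overlapped throughout, and the log2 difference over the 11 wells was -0.0015 (95% interval -0.13 to 0.13), with an adjusted p of 0.982 in edgeR's test. TKTL1 and TKTL2 (transketolase-like proteins of the pentose phosphate pathway), ADCY10 (a soluble adenylyl cyclase), DPEP3 (a dipeptidase) and TPTE (a phosphatase-like protein of the testis) had at most 23 counts in any of the 11 lanes. Of these 7 metabolic rows, 0 passed the test, 3 had a positive and 4 a negative difference over the 11 wells, and the median was -0.0015, against -0.013 over all 59 rows.

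Among the tissue-restricted genes above background, ADAM12 (a metalloprotease of placenta and stroma) had between 33.3 (PFKL) and 64.5 (HK2) normalized counts in the 11 wells, with a median of 50.98, against 45.3 in the other kinase wells, whose highest value was 539. The control lanes had 47.3, 35.9 and 32.1. Its log2 difference was 0.0045 (95% interval -0.32 to 0.33) in edgeR, with the 539 of the MAP3K7 well among the other kinases. Between the means of log2 normalized counts the difference was 0.082 (permutation test, adjusted p = 0.937). PLCZ1 (a sperm phospholipase) ranged from 14.96 (PDK1) to 56.4 (HK3), with log2 difference 0.054.

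ATAD2, a chromatin ATPase, had 240.3 normalized counts in the PDK1 well (rank 6 from the highest), 222.6 in DAK, 216.9 in GK2, 201.2 in PCK2 and 182.9 in GALK2, and all 5 were above the median of 179.2 in the other kinase wells. For these 5 wells, 12 of 59 rows had a positive difference from the other kinases. In the glycolytic wells ATAD2 ranged from 132.2 (PKM2) to 196.4 (HK3), with a median of 162.2. HK3 was thus above GALK2, and the groups overlapped. The log2 difference between the glycolytic and the 5 other wells was -0.40 (95% interval -0.70 to -0.10), which did not pass edgeR's test (adjusted p = 0.201). The control lanes had 231.5, 189.5 and 168.03 (168.03 to 231.5), a range that holds only HK3 and ADPGK of the glycolytic wells and 4 of the 5 others. Both ends of this range come from lanes with the same name, IMR90#2, so it may not be a spread between separate controls. With the block of sample numbers as a term, the difference was -0.18 (edgeR, adjusted p = 0.995), and with TMM factors -0.77 (adjusted p = 0.0604).

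Across all 59 rows, 0 differed between the 11 wells and the other kinase wells at an adjusted p of 0.05 (0% called, edgeR). At an unadjusted p under 0.05 there were 3 in edgeR, 3 in DESeq2, 1 in limma and 1 in a permutation test over lanes, none of which called a row after adjustment. Leaving out 1 of the 11 wells gave from 1 (ADPGK or HK2) to 5 (GALK2 or PKM2) such rows in edgeR. The rows with the smallest p were PPM1D, PuroR, CTAG1B, ZBTB33, C9orf11, Tet2, ZBTB38, MAEL, ASZ1 and DAZL, all with an adjusted p of 0.588 in edgeR's test. The row named PPM1D had a median of 133.5 against 152.6 in the other kinase wells and 10 of 11 wells at or below that median (log2 difference -0.24, 95% interval -0.46 to -0.030). Over all 59 rows the difference was negative for 36. CTAG1B, the tumour antigen NY-ESO-1, had a median of 10.7 against 8.67 normalized counts, and its log2 difference of 0.49 was 0.26 without the HK2 well. C9orf11, a sperm acrosome gene, differed by -0.40, MAEL and ASZ1, which act in the piRNA pathway, by 0.43 and -0.27, and DAZL, a germ cell RNA-binding protein, by 0.32. For 57 of the 59 rows, the 95% interval lay within a 2-fold change in either direction. The exceptions were the rows named ZBTB33 and ZBTB38. Of the 57, 16 were above background in more than 50% of the kinase lanes and 41 were not. Most counts of those 41 rows were at background level, so their intervals do not bound the change of a transcript.

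For the 6 glycolytic wells alone, 0 of 59 rows passed edgeR's test (0% called), with 8 at an unadjusted p under 0.05, 7 with a positive and 1 with a negative difference. The difference was positive for 44 of the 59 rows, and for 36 without the HK3 well. It was positive for 31 with the block of sample numbers as a term, for 53 with positive controls only and for 27 of 58 with B2M alone. Leaving out 1 glycolytic well gave from 3 (PFKM) to 14 (PKM2) rows at an unadjusted p under 0.05. DESeq2 and limma called 0 as well, with 10 and 5 such rows. The smallest adjusted p was 0.0976, for the row named PuroR, one of the 15 with names in doubt. Its normalized counts ranged from 6.01 (PKM2) to 18.02 (PFKM) in the 6 wells, with a median of 13.3, against 6.54 in the other kinase wells. The log2 difference was 0.82 (95% interval 0.31 to 1.32), but the row was above background in 0% of the kinase lanes. Without the PKM2 well, PuroR, CTAG1B and MAEL passed the test with adjusted p of 0.0254, 0.0373 and 0.0373 in edgeR. With TMM factors PuroR passed with 0.0348. Without the HK2 well, the log2 differences of CTAG1B and MAEL went from 0.79 to 0.46 and from 0.83 to 0.48 (adjusted p = 0.851 for both), and the adjusted p of PuroR was 0.329. Without the PFKM well the smallest adjusted p was 0.421.

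For the 5 wells of PDK1, PCK2, GALK2, GK2 and DAK, 0 of 59 rows passed (0% called, edgeR), with 5 at an unadjusted p under 0.05 in each of edgeR, DESeq2 and limma, and 0 called by any of them. In edgeR 4 of these had a negative difference and 1, ATAD2, a positive one. Leaving out 1 of the 5 wells gave from 2 (PDK1) to 6 (DAK) rows at that p in edgeR, and scaling by positive controls only gave 10. Over all 59 rows the difference was negative for 47. ASZ1 had 9.97 (PDK1), 7.28 (PCK2), 6.34 (GALK2), 6.67 (GK2) and 7.05 (DAK) normalized counts, all below the median of 10.9 in the other kinase wells, with a log2 difference of -0.63 (95% interval -1.11 to -0.15) and an adjusted p of 0.377 in edgeR's test. MAGEB6 and SPATA22 also had 0 of the 5 wells above their median in the other kinase wells. MAGEB6 differed by -0.61 and the meiotic genes SPATA22 and HORMAD1 by -0.54 and -0.51, with the same adjusted p. With the block of sample numbers as a term, MAGEB6, SPATA22 and HORMAD1 were at -0.35, -0.30 and -0.32 and ASZ1 at -0.52 (adjusted p = 0.983 for each). With TMM factors they were at -0.37, -0.31 and -0.29, and ASZ1 at -0.39. None of these 4 genes was above background in more than 50% of the kinase lanes.

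**Figure D2:**
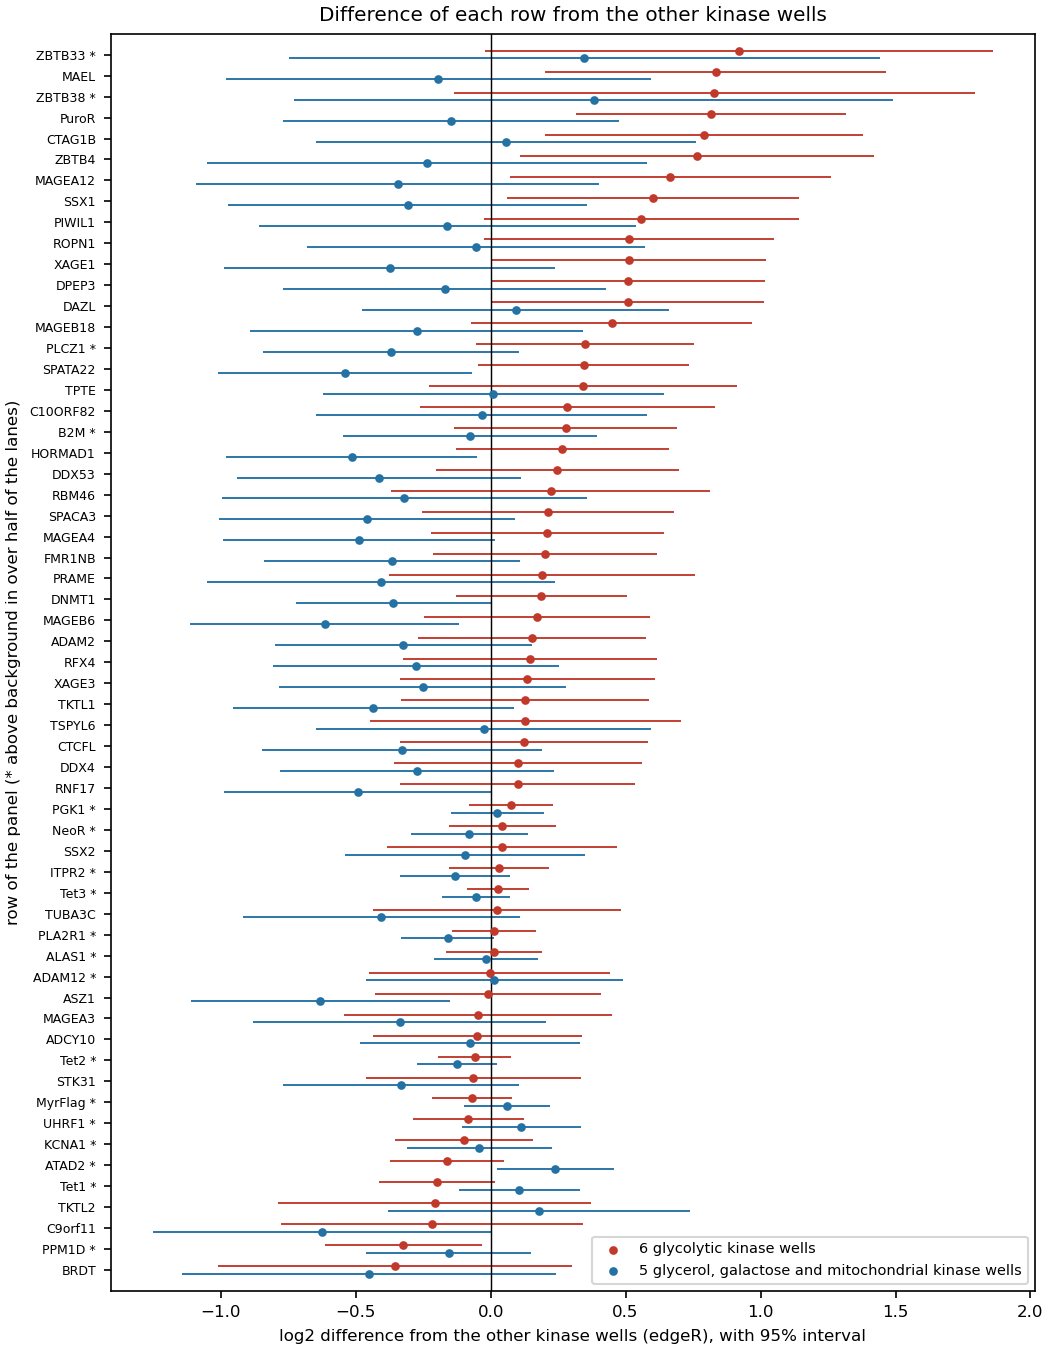
Log2 difference of each of 59 rows from the other kinase wells (horizontal axis, edgeR, points with 95% intervals), for the 6 glycolytic wells (red) and the 5 glycerol, galactose and mitochondrial wells (blue). Stars mark the 18 rows above background in more than 50% of the lanes. Red points lie to the right for 44 rows and blue points to the left for 47, and 0 rows passed an adjusted p of 0.05 in either comparison. Without the HK3 well the first number is 36. With the block of sample numbers as a term the numbers are 31 and 28, and with TMM factors 36 and 28.

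The glycolytic wells were set directly against the 5 others. The difference was positive for 51 of 59 rows and 0 passed edgeR's test (0% called, 12 at an unadjusted p under 0.05, against 12 in DESeq2 and 10 in limma, where 0 were called too). Leaving out 1 well gave from 5 (HK3) to 21 (ADPGK) such rows in edgeR. SPATA22 had 15.97 to 36.1 normalized counts in the glycolytic wells, with a median of 25.1, against 9.97 (PDK1), 15.5 (PCK2), 14.5 (GALK2), 14.5 (GK2) and 10.97 (DAK). The lowest glycolytic value, 15.97, was close to the 15.5 of PCK2, and the row was above background in 35.5% of kinase lanes. The log2 difference was 0.88 (95% interval 0.28 to 1.48, adjusted p = 0.201 in edgeR). With the block of sample numbers as a term it was 0.44 (adjusted p = 0.995), and with TMM factors 0.57 (adjusted p = 0.343). PLCZ1, above background in 72.1% of kinase lanes, ranged from 25.6 to 56.4 against 14.96 to 28.2, with a difference of 0.72, which was 0.27 with the block and 0.41 with TMM factors.

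The summed level of the weak rows moved with the sample number of the lane. The summed normalized count of the 38 weak rows was 588 in HK2, 673 in HK3, 360 in ADPGK, 413 in PFKL, 541 in PFKM and 424 in PKM2. It was 284 in PDK1, 337 in PCK2, 307 in GALK2, 380 in GK2 and 349 in DAK, so that only the ADPGK well lay within the range of the 5 others. The control lanes had 280, 303 and 243. Sample numbers were 23 (PDK1), 51 (DAK), 58 (GALK2), 89 (PCK2) and 94 (GK2) in the 5 others. The glycolytic lanes began at 75 (PKM2), and the other 5 of them had higher numbers than GK2. The 2 sets shared no block of 12 numbers. Over the other kinase lanes the log2 of the same sum correlated with sample number (r = 0.54, rho = 0.53, permutation p = 1e-05 for each, the smallest possible, and at most 3.10e-05 after adjustment over 62 relations). Without the 2 lanes farthest from the median sample number r was 0.54, and after centring within blocks it was 0.074.

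Set against the other kinase lanes of their own block, the weak rows summed to 1.22 (HK2), 1.17 (HK3), 0.894 (ADPGK), 1.02 (PFKL), 1.13 (PFKM) and 1.02 (PKM2) times the block's median. The 5 other wells had 0.914 (PDK1), 0.939 (PCK2), 0.987 (GALK2), 1.06 (GK2) and 1.12 (DAK) times, a range that overlaps the former. With the block as a term in edgeR, 0 rows had an unadjusted p under 0.05 between the 2 sets of wells, against 4 for the glycolytic wells, 1 for the 5 others and 5 for all 11 wells, each against the other kinases. The median log2 difference over 59 rows went from 0.43 to 0.056. The number of positive differences went from 51 to 32. Against the other kinases, the medians went from 0.15 to 0.0042 for the glycolytic wells and from -0.19 to 0.0080 for the 5 others. The sets share no block, so with this term they are compared through the 8 to 11 other kinase lanes of each block. The normalized sum of the 8 negative controls ran the other way, from 56.7 to 81.5 in the glycolytic lanes and from 73.7 to 83.9 in the others.

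**Figure D3:**
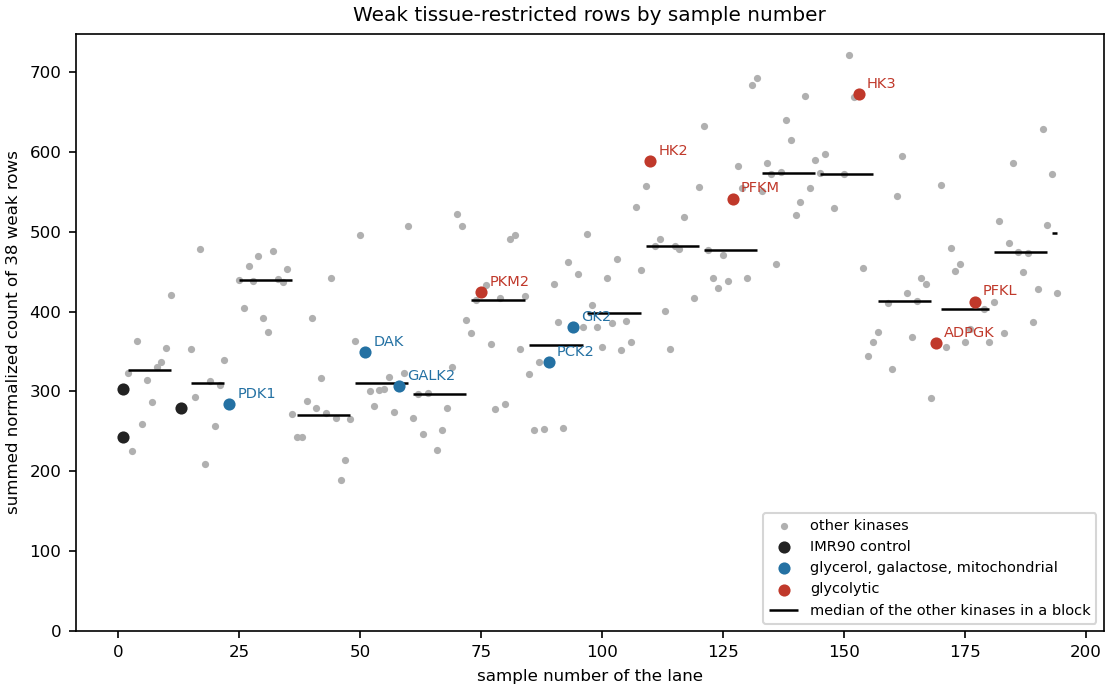
Summed normalized count of the 38 weak tissue-restricted rows (vertical axis) against the sample number of the lane (horizontal axis), with 1 point per lane and a bar at the median of the other kinases in each block of 12 numbers. The glycolytic wells (red) lie at sample numbers of 75 and above and the 5 other wells (blue) at 23 to 94. The medians of the blocks that hold red wells (403 to 573) are higher than those of the blocks that hold blue wells (311 to 359).

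Of the 15 endogenous rows outside the tissue-restricted set, several had counts that go against their names. The row named ZBTB33 had 18.5, 8.98 and 13.9 normalized counts in the control lanes and a median of 17.3 in the mixed RNA, but 4495 to 96000 in the 11 wells. The rows named MyrFlag and NeoR had medians of 2141 and 704 in the mixed RNA of cancer cell lines. The rows stand together in the files, from MyrFlag, NeoR and PuroR to ZBTB33, ZBTB38 and ZBTB4, and these counts would match names that are offset by 3 rows, the first 3 names belonging to the last 3 rows. This was not settled here, so any of the 15 rows, PuroR, PPM1D, Tet1, ITPR2 and MyrFlag included, may measure another gene than its name says. They are given by the names in the files, and no gene function is assigned to them. The row named ZBTB33 is used below in correlations and as a covariate, as a count of unsettled identity. The row named ZBTB33 was highest in HK2 (96000, rank 2 from the highest), followed by PFKM (79033, rank 7), GK2 (57415, rank 12) and PCK2 (50596, rank 18). It was 34630 in HK3, 33858 in ADPGK, 24668 in PFKL, 22761 in DAK, 20166 in PDK1, 9184 in PKM2 and 4495 in GALK2 (rank 19 from the lowest). The median was 33858 against 22186 in the other kinase wells, which ranged from 149.2 to 108570, and the log2 difference of 0.69 (95% interval -0.039 to 1.41) did not pass edgeR's test (adjusted p = 0.588). The row named ZBTB38 followed it over the other kinase lanes (r = 0.99, rho = 0.98, permutation p = 1e-05 for each, adjusted over 62 relations at most 3.10e-05, and r = 0.99 within blocks and without the 2 lanes farthest out).

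The HK2 well, with most counts in these 2 rows (55.7% of its total, against a median of 20.4% in the other kinase lanes), had 8 rows with a Z-score above 2, 7 of them weak. Of these MAEL had 44 counts, ROPN1 (a sperm flagellar protein) 44, the antigen gene MAGEA12 38, CTAG1B 35, PIWIL1 (a germ cell Argonaute protein) 29, SSX1 21 and DPEP3 18, at a background level of 18.8 counts. The other was the row named ZBTB4, with 43 counts. The Z-scores of the 8 lay between 2.01 and 2.41. In the PFKM well, MAEL had 31 and CTAG1B 25 counts, with Z-scores of 1.89 each. Over the other kinase lanes, the 38 weak rows had a median r of 0.23 with the row named ZBTB33 (-0.061 to 0.79, positive for 35 rows). ROPN1, SSX1 and DPEP3 had r = 0.56, 0.51 and 0.42, with rho = 0.65, 0.59 and 0.50, and within blocks r = 0.56, 0.46 and 0.38. Without the 2 lanes farthest from the median of that row these were 0.57, 0.53 and 0.43. The 4 highest of the weak rows, MAEL, CTAG1B, MAGEA12 and PIWIL1, had r = 0.79, 0.70, 0.68 and 0.65, with rho = 0.83, 0.75, 0.72 and 0.71 (permutation p = 1e-05 for each of these 7 rows, adjusted 3.10e-05 for r and 2.48e-05 for rho over 62 relations). Without the 2 lanes farthest from the median of that row, r was 0.79, 0.72, 0.69 and 0.66, and within blocks 0.76, 0.69, 0.65 and 0.63. With that row as a covariate in edgeR, the log2 difference of the glycolytic wells went from 0.83 to 0.20 for MAEL, from 0.79 to 0.28 for CTAG1B and from 0.82 to 0.51 for PuroR, and the rows with an unadjusted p under 0.05 went from 8 to 1. For the 5 other wells these rows went from 5 to 9, and between the 2 sets of wells from 12 to 10, with 0 called in each case. The smallest adjusted p for the glycolytic wells was then 0.939, for a range of 0.0254 to 0.939 over all alternatives.

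Single wells were described by Z-scores, with no test. Of 649 well and row pairs in the 11 wells, 2 (0.308%) had a Z-score above 2.5 and 2 (0.308%) a Z-score below -2.5, against 0.483% and 0.798% of the 10148 pairs of the other kinase wells. No pair of the 11 wells was beyond 3.5 in either direction, against 3 above and 11 below in the others. Both high pairs were in the HK3 lane, SSX2 (2.96) and PRAME (2.83), antigens of tumours and testis. Each rested on 12 counts (exact 95% Poisson interval 6.20 to 20.96, counting error only), at a background level of 11.98 counts, so neither could be told from background. With counts raised to the background level their Z-scores were 0.79 and 0.75. Just inside the threshold was B2M in the PKM2 well, at 2.4995 from 115928 counts. Of the low pairs, the row named Tet1 in the PKM2 well had 239 counts and the lowest normalized value of all kinase lanes, 205 (Z-score -2.77). The row named MyrFlag in PFKL had 345 counts and a normalized value of 459, rank 2 from the lowest (Z-score -2.72), which was -1.01 with positive controls as the scale. Centred within blocks, both were -1.78 and -1.98.

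**Figure D4:**
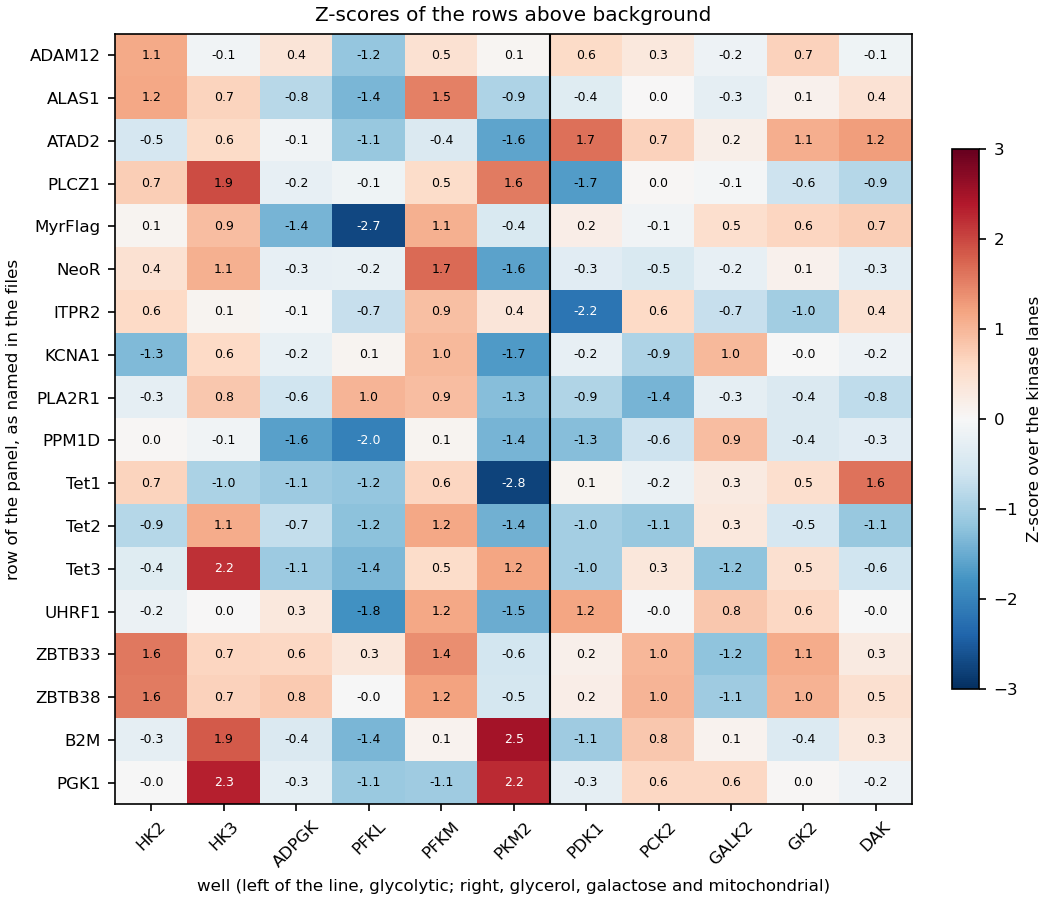
Z-scores over all kinase lanes (color, with the value in each cell) of the 18 rows above background (vertical) in the 11 wells (horizontal). B2M and PGK1 are high in HK3 and PKM2, the rows named Tet1 in PKM2 and MyrFlag in PFKL are below -2.5, and the wells of HK2, ADPGK, PFKM, PCK2, GALK2, GK2 and DAK have no value beyond 2 in either direction.

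The wells differed in how far their profiles lay from the average. The root mean square Z-score over 59 rows was 1.37 in HK3 (rank 14 from the highest), 1.17 in HK2, 1.11 in PKM2, 1.07 in PFKL and 1.02 in PFKM. It was 0.948 in PDK1, 0.780 in GK2, 0.763 in GALK2, 0.710 in ADPGK, 0.684 in DAK and 0.684 in PCK2, the last at rank 7 from the lowest, against a median of 0.941 over all lanes. At a Z-score above 2 there were 19 pairs (2.93%, against 2.08% in the other kinase wells), 8 in HK2, 8 in HK3, 2 in PKM2 and 1 in PFKM. Below -2 there were 8 (1.23%, against 2.29%), 5 in PFKL, 2 in PDK1 and 1 in PKM2. In PDK1 these were ITPR2, with 473 counts (rank 7 from the lowest), and HORMAD1, with 6.

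Pairs of related enzymes were set beside all other pairs of wells, with no test. Over the 18 rows above background, HK2 and HK3 differed by a root mean square of 0.62 on the log2 scale and PFKL and PFKM by 0.77. Among the 14706 pairs of the other kinase wells the median was 0.60, with 5% and 95% quantiles of 0.28 and 1.69. The 18 rows include those named ZBTB33 and ZBTB38, of unsettled identity. Their log2 SDs over the other kinase lanes were 1.60 and 1.62, against 0.51 for PLCZ1, the next largest. These 2 rows, which move together, thus weigh most in the distances.

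In the lists of rows, 0 rows of any list passed the test in any of the comparisons. The median log2 difference was 0.21 for the 5 MAGE genes in the glycolytic wells and -0.34 in the 5 others, 0.20 and -0.31 for 7 other tumour antigens, and 0.22 and -0.32 for 9 germ cell RNA-binding and piRNA genes. It was 0.13 and -0.33 for 7 germline chromatin and transcription genes, 0.21 and -0.37 for 7 sperm genes and 0.066 and -0.12 for the 2 placental genes, with XAGE3 in 2 lists. The 15 rows with names in doubt were listed by those names alone, 10 named MyrFlag or for DNMT1, PPM1D, UHRF1 and the Tet and ZBTB genes, with -0.016 and 0.0024, and 5 others, with 0.032 and -0.13. The medians were 0.076 and -0.016 for the 7 metabolic enzymes, and 0.18 and -0.026 for B2M and PGK1. Over the 38 weak rows, which make up most of the tissue-restricted lists, the medians were 0.20 and -0.33, near those of most of these lists. Over all 59 rows the medians were 0.15 and -0.19, and without the HK3 well, which has the largest scaling factor of the 11, the first was 0.040. It was 0.23 without ADPGK, and the second was -0.31 without GK2 and -0.13 without PDK1. The scaling moved these values: with TMM factors the medians over all rows were 0.057 and 0.041, with positive controls alone 0.24 and -0.32, and with B2M alone -0.026 and -0.21. Of the lists, the MAGE genes and the other tumour antigens had the same sign of both medians under each scaling and with the block as a term. With the block, however, the medians of the MAGE genes were 0.0021 and -0.057, and those of the other tumour antigens 0.079 and -0.022. Over the 11 wells together, the list medians lay between -0.083 (MAGE genes) and 0.090 (B2M and PGK1).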

How the data were processed

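RNA from 197 lanes was measured with a Nanostring panel. Per the labels and methods, total RNA was collected 4 days after infection. The authors deposited raw counts per row and lane, without normalization. A table of the whole series, already normalized by the authors, was not used. Lanes were grouped by the kinase in the title. The members, gene lists and tests were chosen with earlier results of these data known.

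Normalized counts were scaled by the geometric mean of TBP and TUBB2A to its median over 183 kinase lanes. Scaling by the positive controls cancels in this step. Rows were tested in R 4.3.3 with edgeR 4.0.16 (quasi-likelihood test, library size from TBP and TUBB2A, all 183 lanes in 1 fit, Benjamini-Hochberg over 59 rows, threshold 0.05). DESeq2 1.42.0, limma 3.58.1 and a permutation test over lanes (100000 resamples, two-sided) were alternatives, as were other reference genes, TMM factors, a background filter, blocks of 12 sample numbers, the row named ZBTB33 as a covariate, leaving out PIP5K2A or each of the 11 wells, and adding GK. The standard error of a log2 difference was derived from the F statistic, and intervals are normal 95% intervals. Z-scores used log2(count + 1) and the thresholds 2.5 and 3.5. Python 3.11.15 with numpy 2.4.6, pandas 2.3.3 and scipy 1.17.1 was used for the rest. The fits were tested on simulated data.

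The rows named were PGK1, B2M, TBP, TUBB2A, ZBTB33, MyrFlag, those above background in more than 50% of the lanes, the 10 with the smallest p, those passing any test and pairs with a Z-score beyond 2.5. Other rows named beside them, namely the next rows by p in each comparison, the members of the metabolic list and pairs beyond a Z-score of 2, were chosen after their values were seen. Of 58 rows with a RefSeq accession, 55 were found in RefSeq (GRCh38.p14), 53 under the same symbol. PIK3CG and PTK2 have second lanes, which were left out, and each of the 11 enzymes has 1 lane, so p-values measure only the spread between wells of different kinases. The control IMR90#2 also has a second lane, which was kept among the control lanes. No control lane entered the edgeR fit. Precision at low counts depends on the raw count and the scaling factor of the lane.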

Additional observations from a re-analysis of the deposited data

How the results depend on the processing

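Counts of rows that passed stayed at 0 under all 25 alternatives for the 11 wells against the other kinases (smallest adjusted p between 0.287 and 0.979), and under all 24 for the 5 wells of PDK1, PCK2, GALK2, GK2 and DAK (0.208 to 0.983) and for the glycolytic wells against these (0.0604 to 0.995). For the glycolytic wells against the other kinases, 22 of 24 alternatives gave 0, TMM factors gave 1 (PuroR) and leaving out each well in turn gave 0 to 3 (CTAG1B, MAEL and PuroR, without PKM2). The cause was not tested. The PGK1 difference went from 0.052 to -0.047 with B2M as the only reference gene, and lay between 0.012 and 0.098 under the other 23 alternatives. The B2M difference ranged from -0.034 (without PKM2) to 0.19 (without PFKL) when each well was left out. Pairs with a Z-score above 2.5 numbered 2. There were 6 with TBP alone, 4 with positive controls only, 10 with a pseudocount of 10, 8 with the median and median absolute deviation, and 0 both with rows above background only, where fewer rows enter, and with a floor at the background level. Without the HK3 lane, which holds both pairs and was left out after the data had been seen, there was 1, B2M in PKM2. Without the HK2 lane there were 2. No paired analysis was possible because the groups hold different kinases, the compared lanes include 1 lane of each, and replicate numbers only name lanes. Most tissue-restricted rows were below background, so changes of these under the background level were not detectable at this depth.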
